A study of Homo sapiens with 27 samples.

Results

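In the kinome-wide shRNA screen of 3 head and neck squamous cell carcinoma (HNSCC) lines, 30 of the 3177 shRNAs counted, or 0.944%, stood apart in UMSCC25 cells that had received the vehicle and no kinase inhibitor. A library is the set of shRNA counts from the genomic DNA of 1 plate of cells, and counts were put on a common scale as CPM, the count an shRNA would have in a library of 1000000 counts. Members were chosen by their DMSO counts. An shRNA was a member when its mean over the 3 vehicle (DMSO) plates reached 100 CPM in at least 1 line and its UMSCC25 mean was at least 3-fold above the higher, or at least 3-fold below the lower, of the UMSCC8 and UMSCC1 means. Of the 30 members, 8 were high in UMSCC25 and 22 were low. Some of the low members, named below, also met the same rule as high in UMSCC8, so UMSCC25 was not the only line set apart for them. Of all shRNAs, 2330 reached 100 CPM in a line. Their DMSO values are therefore given below as a description with no test, and tests were made on the gefitinib and AZD8931 plates, which the choice did not use.

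UMSCC25, UMSCC8 and UMSCC1 are established HNSCC lines. All 9 groups of 3 plates shared the same first steps: cells of each line were transduced with the MISSION TRC1 human kinome shRNA library and selected with puromycin, and plates then received DMSO, gefitinib (300 nM) or AZD8931 (30 nM) for 72 hours, followed by 72 hours of recovery and isolation of DNA at 144 hours. Another field of the labels gives 1.0 μM for both agents. Gefitinib inhibits the tyrosine kinase of the epidermal growth factor receptor (EGFR), and AZD8931 inhibits EGFR, HER2 and HER3 signaling. Transduction was done in a single round per line, on a pair of dishes, and the sources used here do not say whether the dishes were pooled before the plates were treated. The 3 plates of a group are therefore taken as repeats of the treatment, harvest and sequencing, not of the transduction. A property of a line and an accident of its transduction therefore cannot be told apart, and p-values measure the spread between plates, which may be technical. No RNA was measured, so the identity of the lines could not be checked against marker genes.

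In a pooled shRNA screen, each lentiviral vector inserts a hairpin cassette into the genome of the cell it enters, and puromycin removes cells without one. The hairpin is processed into a short interfering RNA that lowers the mRNA of its target, here a kinase, and the cassette itself serves as a tag that can be counted. The level of a tag depends on how many cells received it and on how much their descendants grew, and a hairpin with few founder cells is subject to chance at each splitting of the culture. The TRC collection holds several hairpins for most kinases. The table names each shRNA by its clone identifier, and members are given here by that name. A gene could be attached to 1 member, TRCN0000040008, which targets TGFBR2.

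The 27 libraries held 178406 to 559422 counts, so that a count of 0, which allows up to 3 counts, corresponds to as much as 16.8 CPM in the shallowest library (a UMSCC8 gefitinib plate) and 5.36 CPM in the deepest. Such limits, like the counting intervals below, cover counting error only, because reads amplified by PCR and not tagged per molecule can copy 1 template many times. The 9 UMSCC25 libraries had 357486 to 540576 counts. The shallowest libraries were UMSCC8 gefitinib replicate 3 (178406 counts), UMSCC1 DMSO replicate 2 (258742 counts) and UMSCC1 AZD8931 replicate 2 (266911 counts). By the number of shRNAs without a count, a pair of other libraries stood apart from their groups. In UMSCC8 DMSO replicate 1, 328 shRNAs had no count, where the rest of that line had 81 to 139 such shRNAs, and in UMSCC1 AZD8931 replicate 1, 354 had none, where the rest of UMSCC1 had 163 to 260. Where a call below was lost without UMSCC1 AZD8931 replicate 1, that is stated beside it. UMSCC8 DMSO replicate 1 was in no main test of calls. It entered the alternative fit of all 27 libraries and helped to choose the members. Those that left the set without it are named below.

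The 8 high members had UMSCC25 DMSO means of 102 to 600 CPM (median 213), whereas their means were 23.3 to 129 CPM (median 52.9) in UMSCC8 and 24.9 to 192 CPM (median 41.0) in UMSCC1. The UMSCC25 mean exceeded that of the nearer line by 3.05-fold to 8.44-fold (median 3.68-fold). In all 8, the lowest UMSCC25 DMSO plate lay above the highest of the 6 plates of the other lines, a separation that 5.7% of all shRNAs had in that direction and that follows largely from the choice. Together the high members made up 0.202% to 0.229% of the counts of each UMSCC25 DMSO library and 0.0267% to 0.0576% of each UMSCC8 DMSO library. For 5 of the 8, the UMSCC8 and UMSCC1 means were within 1.5-fold of each other.

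TRCN0000039888 had the largest ratio. Its DMSO plates read 452, 363 and 340.0 CPM in UMSCC25 (mean 385 ± 58.9 SD, n = 3), 51.5, 43.8 and 41.4 CPM in UMSCC8 and 58.6, 34.8 and 32.6 CPM in UMSCC1. Every UMSCC25 plate was far above every other plate, and the other 2 lines overlapped. TRCN0000000901 was the most abundant member, at 528, 632 and 641 CPM in UMSCC25, 51.5, 119 and 217 CPM in UMSCC8 and 99.8, 158 and 318 CPM in UMSCC1. This shRNA was also 1 of the pair nearest the threshold, with a ratio of 3.13, because UMSCC1 DMSO replicate 3 was high. The other of that pair was TRCN0000038673 (ratio 3.05, UMSCC25 mean 102 CPM), and the nearest shRNAs left out were TRCN0000010632 (2.97, UMSCC25 mean 202 CPM) and TRCN0000037899 (2.78, UMSCC25 mean 223 CPM).

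TRCN0000001531 was the tightest of the high members in UMSCC25, at 293, 278 and 301 CPM, but it was variable elsewhere, with 28.1, 85.2 and 67.1 CPM in UMSCC8 and 19.5, 0 and 114 CPM in UMSCC1. TRCN0000002208 had the second largest ratio (5.96) at a lower level, with 106, 147 and 192 CPM in UMSCC25 against 0, 46.3 and 23.7 CPM in UMSCC8 and 39.1, 19.3 and 16.3 CPM in UMSCC1. These and TRCN0000039888 were the 3 high members that the rule still found when each of the 9 DMSO libraries was left out in turn. The remaining high members were TRCN0000010251, TRCN0000010284 and TRCN0000006030, with UMSCC25 DMSO means of 200 ± 49.1, 220.3 ± 14.4 and 205 ± 40.3 CPM (SD, n = 3).

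The first question put to the treated plates was whether the high members were again higher in UMSCC25. Their UMSCC25 means were 78.3 to 841 CPM with gefitinib (median 198) and 117 to 1005 CPM with AZD8931 (median 225), close to the DMSO median. All 8 means lay above both other lines with each agent, at any fold, compared with 30.1% of all shRNAs with gefitinib and 31.5% with AZD8931. The full 3-fold rule held for 4 of 8 on the gefitinib means (0.661% of all shRNAs met it) and for 2 of 8 on the AZD8931 means (0.567%). The 2 that met it with both agents were TRCN0000039888 and TRCN0000000901. The 6 treated UMSCC25 plates lay wholly above the 12 treated plates of the other lines for the same 2 shRNAs, against 1.35% of all shRNAs.

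edgeR's quasi-likelihood test on the 18 treated libraries, with Benjamini-Hochberg adjustment over 3125 shRNAs, called 6 of the 8 high members higher in UMSCC25 than in UMSCC1 with gefitinib (6.91% of all shRNAs were called in that direction) and 4 of 8 with AZD8931 (12.2%). Against UMSCC8, it called 2 of 8 with gefitinib (3.33%) and 2 of 8 with AZD8931 (1.06%). All 8 members had been testable, and all 8 fold changes were above 0 in each of the 4 comparisons. Their median log2 fold change was 2.11 against UMSCC1 and 2.03 against UMSCC8 with gefitinib, and 1.5 and 1.24 with AZD8931, where the medians of all shRNAs were 0.03, -0.04, 0.02 and -0.01. The AZD8931 and gefitinib comparisons use separate plates of the same transduced cultures, so they do not repeat the transduction.

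TRCN0000039888 and TRCN0000000901 were called in all 4 comparisons, as 0.128% of all shRNAs were in that direction. TRCN0000039888 had 444, 543 and 619 CPM in UMSCC25 with gefitinib and 475, 500.0 and 417 CPM with AZD8931. Its 12 plates in the other lines ran from 9.88 to 126 CPM. The log2 fold changes were 3.63 (SE 0.56, adjusted p = 0.000206) against UMSCC1 and 3.00 (SE 0.54, adjusted p = 0.00172) against UMSCC8 with gefitinib in the edgeR test. With AZD8931 they were 2.63 (SE 0.54, adjusted p = 0.00112) and 3.82 (SE 0.57, adjusted p = 0.000356). None of these 4 calls was lost when any 1 of the 18 libraries was left out.

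TRCN0000000901 read 1061, 692 and 769 CPM with gefitinib and 696, 1048 and 1273 CPM with AZD8931 in UMSCC25. The treated plates of UMSCC8 ran from 124 to 291 CPM and those of UMSCC1 from 63.2 to 626 CPM, so that a single UMSCC1 AZD8931 plate, replicate 2, came near the UMSCC25 range without entering it. In the edgeR test the log2 fold changes were 1.99 (SE 0.49, adjusted p = 0.0104) against UMSCC1 and 2.00 (SE 0.49, adjusted p = 0.0165) against UMSCC8 with gefitinib, and 1.71 (SE 0.49, adjusted p = 0.0124) and 2.82 (SE 0.51, adjusted p = 0.00332) with AZD8931. The gefitinib call against UMSCC1 was lost without UMSCC1 gefitinib replicate 1 (adjusted p = 0.0521, the highest with any library left out), and that against UMSCC8 without UMSCC8 gefitinib replicate 2 or 3 (adjusted p up to 0.0677). With AZD8931, the call against UMSCC1 was lost without UMSCC1 replicate 1 or 3 or UMSCC25 replicate 3 (adjusted p up to 0.0621).

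TRCN0000038673 and TRCN0000006030 were called against UMSCC1 with both agents and against UMSCC8 with neither. TRCN0000038673 had 243, 70.4 and 179 CPM with gefitinib and 370.0, 239 and 154 CPM with AZD8931 in UMSCC25, and 2.43 to 47.5 CPM over the 6 treated UMSCC1 plates. In UMSCC8, however, its gefitinib plates read 128, 149 and 157 CPM, within the UMSCC25 range, against a UMSCC8 DMSO mean of 33.4 ± 26.2 CPM (SD, n = 3). Its log2 fold changes against UMSCC1 were 2.46 (SE 0.65, adjusted p = 0.0162) with gefitinib and 3.67 (SE 0.69, adjusted p = 0.000589) with AZD8931 in the edgeR test. The gefitinib call was lost without UMSCC1 gefitinib replicate 1 or 3 or UMSCC25 gefitinib replicate 1 (adjusted p up to 0.0692). TRCN0000006030, named after its values were seen, read 368, 116 and 138 CPM with gefitinib and 129, 259 and 333 CPM with AZD8931 in UMSCC25, against 0, 22.5 and 13.2 CPM in UMSCC1 with AZD8931 (log2 fold change 4.25, SE 0.85, adjusted p = 0.000966). Its gefitinib call was at the threshold (log2 fold change 2.23, SE 0.73, adjusted p = 0.0479) and was lost in 16 of the 18 fits that left out a library. That call was lost also under the other scalings, under the other filters and with a replicate block.

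TRCN0000010251 and TRCN0000010284, the second of which was also named after its values were seen, were called with gefitinib against UMSCC1. TRCN0000010251 read 98.0, 141 and 144 CPM in UMSCC25 and 15.1, 15.8 and 23.2 CPM in UMSCC1 (log2 fold change 2.85, SE 0.70, adjusted p = 0.0102 in the edgeR test). With AZD8931 its UMSCC25 plates, at 154, 63.0 and 162 CPM, overlapped those of UMSCC1, at 36.4, 105 and 66.1 CPM. TRCN0000010284 had a log2 fold change of 1.99 (SE 0.57, adjusted p = 0.0232). This call was lost without UMSCC1 gefitinib replicate 1 or 3 or UMSCC25 gefitinib replicate 2 or 3, with an adjusted p of up to 0.11. It was lost also in the fit of all 27 libraries.

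The 2 high members called in none of the 4 comparisons were TRCN0000002208 and TRCN0000001531, which had the largest DMSO ratios after TRCN0000039888. TRCN0000002208 read 85.8, 50.3 and 99.0 CPM with gefitinib in UMSCC25 and 88.8, 169.6 and 92.3 CPM with AZD8931, and its UMSCC1 plates reached 62.6 and 77.8 CPM. TRCN0000001531 read 167, 231 and 167 CPM with gefitinib and 176, 50 and 243 CPM with AZD8931, and the treated plates of the other lines reached 196 CPM in UMSCC8 and 169 CPM in UMSCC1. Its UMSCC25 level over the 6 treated plates was 0.593 of that in DMSO, the lowest of the high set. At the other end, TRCN0000038673 was at 2.05 and TRCN0000000901 at 1.54 of their DMSO levels. The UMSCC25 level was above DMSO for 4 of 8 with each agent. Members chosen for a high DMSO mean share those DMSO plates with such a ratio, so it was not tested. The share of all shRNAs above DMSO was not counted.

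The 22 low members had UMSCC25 DMSO means of 0 to 128 CPM (median 26.2). Their means were 73.2 to 419 CPM (median 141) in UMSCC8 and 2.58 to 447 CPM (median 128) in UMSCC1, and the ratio of UMSCC25 to the nearer line was 0 to 0.332 (median 0.268). In 13 of the 22, all 3 UMSCC25 plates lay below all 6 others, compared with 3.24% of all shRNAs in that direction, which again follows largely from the choice. Together they made up 0.0699% to 0.0908% of each UMSCC25 DMSO library and 0.308% to 0.559% of each UMSCC8 DMSO library, the highest being UMSCC8 DMSO replicate 1. The members nearest the threshold were TRCN0000039605 (0.332, UMSCC25 mean 24.3 CPM) and TRCN0000006359 (0.320, 85.9 CPM), and the nearest left out were TRCN0000006250 (0.337, 45.9 CPM) and TRCN0000001970 (0.338, 27.2 CPM). For 13 of the 22, the UMSCC8 and UMSCC1 means were within 1.5-fold of each other. TRCN0000003179, TRCN0000040008 and TRCN0000000490 had UMSCC8 means 11.7, 3.55 and 3.15 times their UMSCC1 means. These and TRCN0000040045 also met the same rule as high in UMSCC8. TRCN0000003179 read 10.9, 4.27 and 15.1 CPM in UMSCC25, 524, 436 and 296 CPM in UMSCC8 and 43.4, 61.8 and 2.04 CPM in UMSCC1.

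UMSCC8 DMSO replicate 1 set the membership of much of the low set. Without it the rule kept 11 of the 22 low members and 6 of the 8 high members, and it found 15 low and 7 high shRNAs in all. The high members that dropped out were TRCN0000010284 and TRCN0000038673. Low members that dropped out and had calls below were TRCN0000000520, TRCN0000001820, TRCN0000006359, TRCN0000010148, TRCN0000037491 and TRCN0000037764. The others were TRCN0000002177, TRCN0000010168, TRCN0000039972, TRCN0000040008 and TRCN0000040045. The 11 low members that dropped out had 40.2% to 81.5% of their UMSCC8 DMSO counts in that plate, and the 11 kept had 19.8% to 48.4%. Leaving out UMSCC25 DMSO replicate 2 gave 34 low shRNAs, 18 of them among the 22. The 5 low members found whichever DMSO library was left out were TRCN0000037955, TRCN0000001993, TRCN0000037427, TRCN0000021522 and TRCN0000039634.

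Of the 3 low members with the smallest ratios, TRCN0000040045 and TRCN0000037491 left the set without UMSCC8 DMSO replicate 1, and TRCN0000039634 did not. TRCN0000040045 had no count in the 3 UMSCC25 DMSO plates, where 3 counts over the group would be 2.15 CPM. Its UMSCC8 plates read 290.3, 26.8 and 35.5 CPM, so that 124 of its 153 UMSCC8 DMSO counts came from replicate 1. With 3 counts allowed in UMSCC25 and the UMSCC8 counts taken as exact, UMSCC25 was at least 52.8-fold lower with that plate and 14.7-fold without it. The 95% counting interval of the ratio, which covers the counts of both lines, reached 0.0236 with that plate. In UMSCC1 TRCN0000040045 was nearly absent as well, with 0, 7.73 and 0 CPM, which were 2 counts in all, and no fold was formed. TRCN0000037491 read 10.9, 23.5 and 12.9 CPM in UMSCC25, 288, 31.7 and 29.6 CPM in UMSCC8 and 93.3, 131 and 124 CPM in UMSCC1. All 3 UMSCC25 plates of TRCN0000037491 were below the other 6, but only narrowly below the lower 2 of UMSCC8. TRCN0000039634 read 8.69, 53.4 and 6.46 CPM in UMSCC25, 180.3, 97.4 and 84.8 CPM in UMSCC8 and 237, 186 and 71.3 CPM in UMSCC1, without overlap.

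The most abundant low members, by the lower of the other 2 lines, were TRCN0000052573, TRCN0000006359 and TRCN0000037955. TRCN0000052573 read 89.0, 147 and 146 CPM in UMSCC25 DMSO plates, 259.8, 492 and 489 CPM in UMSCC8 and 716, 317 and 307 CPM in UMSCC1. TRCN0000006359 read 54.3, 128 and 75.3 CPM in UMSCC25 and 199.6 to 417 CPM over the 6 other plates. TRCN0000037955 read 58.6, 91.9 and 43.0 CPM in UMSCC25 and 147 to 369 CPM over the others. None of the 3 overlapped between UMSCC25 and the other lines in DMSO, and TRCN0000052573 was the only low member at 100 CPM or more in UMSCC25.

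The same question was then put to the low members. Their treated UMSCC25 means were 0.687 to 178 CPM with gefitinib (median 40.2) and 0.725 to 194 CPM with AZD8931 (median 71.0), and the UMSCC25 level was above that in DMSO for 16 of 22 with gefitinib and 17 of 22 with AZD8931. Over the 21 members with a DMSO count, the median ratio of treated to DMSO level was 1.78 (range 0.0448 to 3.09). A set chosen for low DMSO values shares those plates with the ratio, so it was not tested. The share of all shRNAs above DMSO was not counted, so these numbers have no background beside them. The low set made up 0.103% to 0.130% of each UMSCC25 gefitinib library. The UMSCC25 mean was below both other lines for 20 of 22 with gefitinib (35.3% of all shRNAs) and for 14 of 22 with AZD8931 (28.5%). The full rule held for 7 of 22 on the gefitinib means (1.7% of all shRNAs) and 3 of 22 on the AZD8931 means (0.944%), and TRCN0000039605 alone met it with both agents. The 6 treated UMSCC25 plates lay wholly below the 12 of the other lines for TRCN0000037491, TRCN0000039605 and TRCN0000038654, 3 of 22 against 0.818% of all shRNAs.

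In the edgeR test, 6 of the 22 low members were called lower in UMSCC25 than in UMSCC1 with gefitinib (3.71% of all shRNAs) and 5 of 22 with AZD8931 (10.7%). Against UMSCC8, 8 of 22 were called lower with gefitinib (2.69%) and 6 of 22 with AZD8931 (1.47%). All 22 had been testable. Their median log2 fold change was -1.59 against UMSCC1 and -1.76 against UMSCC8 with gefitinib, and -0.74 and -0.82 with AZD8931. At least 1 of the 4 comparisons called 13 of the 22 low members in the direction of the set (14.7% of all shRNAs were called lower in at least 1) and 6 of the 8 high members (18.2% higher).

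TRCN0000037491 was the low member called in all 4 comparisons, as 0.192% of all shRNAs were in that direction. It had 1 count in the 3 UMSCC25 gefitinib plates and 1 in the 3 AZD8931 plates. With gefitinib it had 99 counts in UMSCC1 and 50 in UMSCC8, which gave a UMSCC25 level of 0.0115 that in UMSCC1 (95% counting interval 0.000288 to 0.0655) and 0.0171 that in UMSCC8 (0.000423 to 0.0995). With AZD8931 the ratios were 0.0151 (0.000375 to 0.0873) and 0.0142 (0.000354 to 0.0815). The adjusted p in the edgeR test was 0.00444 and 0.0185 with gefitinib and 0.00257 and 0.0159 with AZD8931, against UMSCC1 and UMSCC8 respectively. The calls against UMSCC8 were lost in 4 of 18 fits without a library for gefitinib (UMSCC25 replicate 1 or 2, or UMSCC8 replicate 1 or 2; adjusted p up to 0.0891) and in 3 of 18 for AZD8931 (UMSCC25 replicate 1 or 3, or UMSCC8 replicate 3; adjusted p up to 0.107). This shRNA belongs to the set only when UMSCC8 DMSO replicate 1 is included.

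Against both lines at once, 5 members were called with gefitinib and 6 with AZD8931. With gefitinib these were the 2 high members (1.25% of all shRNAs) and 3 low members (1.09%), TRCN0000000854, TRCN0000037491 and TRCN0000037764. With AZD8931 they were the same 2 high members (0.256%) and 4 low members (0.8%), TRCN0000037491, TRCN0000038654, TRCN0000039605 and TRCN0000039634. Among the members that the rule finds without UMSCC8 DMSO replicate 1, 2 high and 1 low were called with gefitinib and 2 high and 3 low with AZD8931. The gefitinib count was 2 without UMSCC25 gefitinib replicate 2 or UMSCC8 gefitinib replicate 2 or 3, was 3 without UMSCC25 gefitinib replicate 1 or 3, UMSCC8 gefitinib replicate 1 or UMSCC1 gefitinib replicate 1, and was 9 without UMSCC1 AZD8931 replicate 1. The AZD8931 count was 3 without UMSCC25 AZD8931 replicate 1 and 2 without UMSCC25 AZD8931 replicate 3.

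TRCN0000038654, named like the next members after its values were seen, had the most even levels of these. Its UMSCC25 plates read 71.1, 60.4 and 59.8 CPM with gefitinib and 25.9, 23.9 and 25.2 CPM with AZD8931. Those of UMSCC8 read 148, 96.9 and 129 CPM and then 96.0, 85.6 and 98.8 CPM, and those of UMSCC1 read 189, 166 and 225 CPM and then 340.2, 217 and 304 CPM. The plates of UMSCC25 lay below all others with each agent. With gefitinib the log2 fold change against UMSCC1 was -1.55 (SE 0.46, adjusted p = 0.0304 in the edgeR test), a call lost in 5 of 18 fits without a library. Against UMSCC8 it was -0.88 (SE 0.47, adjusted p = 0.261) and was not called. The log2 fold change with AZD8931 was -3.69 (SE 0.51, adjusted p = 4.16e-05) against UMSCC1, kept whichever library was left out, and -1.83 (SE 0.49, adjusted p = 0.0377) against UMSCC8, lost in 7 of 18 such fits. The call against UMSCC8 was lost also in the fit of all 27 libraries, under limma-voom and with a replicate block.

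TRCN0000039605 read 22.1, 47.8 and 22.7 CPM with gefitinib and 14.8, 17.4 and 11.2 CPM with AZD8931 in UMSCC25. Its treated plates ran from 86.3 to 157 CPM in UMSCC8 and from 56.2 to 439.8 CPM in UMSCC1, so that no plate overlapped. The log2 fold changes against UMSCC1 were -2.85 (SE 0.64, adjusted p = 0.00551) with gefitinib and -4.11 (SE 0.69, adjusted p = 0.000246) with AZD8931. Against UMSCC8 the change with gefitinib was -1.81 (SE 0.64, adjusted p = 0.0828) and was not called. With AZD8931 it was -2.94 (SE 0.67, adjusted p = 0.0159). This last call was lost without any 1 of the UMSCC25 AZD8931 plates or without UMSCC8 AZD8931 replicate 2 (adjusted p up to 0.0828), and under limma-voom.

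TRCN0000000854 and TRCN0000037764 were the low members other than TRCN0000037491 called below both lines with gefitinib. TRCN0000000854 read 31.9, 2.51 and 20.6 CPM with gefitinib in UMSCC25 and 149.8, 47.8 and 42.0 CPM with AZD8931, when UMSCC1 read 51.0, 139 and 130.3 CPM. Its gefitinib log2 fold changes were -3.09 (SE 0.72, adjusted p = 0.00727) against UMSCC1 and -2.77 (SE 0.72, adjusted p = 0.0211) against UMSCC8, the second of which was lost without UMSCC25 gefitinib replicate 2 or 3 or UMSCC8 gefitinib replicate 2 or 3 (adjusted p up to 0.104). TRCN0000037764 was nearer the threshold, at -1.88 (SE 0.58, adjusted p = 0.036) and -1.93 (SE 0.59, adjusted p = 0.0467), and its calls were lost in 4 and 14 of 18 fits without a library. Each of its calls was lost also with a replicate block, and that against UMSCC8 under limma-voom. TRCN0000039634 was called with AZD8931 instead, with 105, 176 and 30.9 CPM in UMSCC25 with gefitinib and 5.55, 8.70 and 19.6 CPM with AZD8931, where it was called against UMSCC1 (log2 fold change -2.78, SE 0.70, adjusted p = 0.00577) and UMSCC8 (-3.74, SE 0.71, adjusted p = 0.0035). The differences between the agents for these 3 shRNAs were not called in edgeR's interaction tests against either line.

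Other low members were called against 1 line and not the other. TRCN0000000490 was called lower than in UMSCC8 with both agents. Its treated plates read 14.7 to 67.9 CPM in UMSCC25, 179 to 364 CPM in UMSCC8 and 43.7 to 134 CPM in UMSCC1, so that UMSCC25 overlapped UMSCC1 but not UMSCC8. The log2 fold changes against UMSCC8 were -3.17 (SE 0.60, adjusted p = 0.00306) with gefitinib and -2.38 (SE 0.58, adjusted p = 0.0233) with AZD8931. The AZD8931 call was lost without any 1 of the 6 AZD8931 plates of UMSCC25 and UMSCC8 (adjusted p up to 0.125). TRCN0000037955 was called lower than in UMSCC1 with gefitinib, at 73.5, 52.8 and 35.1 CPM against 434, 385 and 302 CPM (log2 fold change -2.75, SE 0.56, adjusted p = 0.00328). TRCN0000001820 (log2 fold change -2.73, SE 0.76, adjusted p = 0.0322) was called against UMSCC8 with gefitinib, and TRCN0000006359 (-1.42, SE 0.51, adjusted p = 0.0449) against UMSCC1 with AZD8931. The first of these calls was lost without any 1 of the UMSCC25 gefitinib plates or without UMSCC8 gefitinib replicate 1 or 3 (adjusted p up to 0.124). It was lost also under limma-voom and with a replicate block. The second call was lost without UMSCC1 AZD8931 replicate 1, UMSCC1 gefitinib replicate 1, UMSCC25 AZD8931 replicate 2 or 3, or UMSCC8 AZD8931 replicate 1 (adjusted p up to 0.2). Scaling by total counts alone also lost it.

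The 9 low members called lower in none of the 4 comparisons were TRCN0000040008, described below, and TRCN0000052573, TRCN0000010168, TRCN0000039972, TRCN0000001993, TRCN0000037427, TRCN0000002177, TRCN0000021522 and TRCN0000040045. Among them were 3 of the 5 that the rule found whichever DMSO library was left out. TRCN0000001993, 1 of the pair whose UMSCC25 level moved farthest above DMSO among those outside the rule with both agents, read 23.9, 32.0 and 17.2 CPM in UMSCC25 with DMSO, 46.6, 67.9 and 68.0 CPM with gefitinib and 22.2, 45.7 and 173 CPM with AZD8931. Its plates overlapped those of UMSCC8, at 56.2 to 113 CPM with gefitinib and 94.8 to 177 CPM with AZD8931. TRCN0000037427 (58.6, 23.5 and 8.61 CPM in UMSCC25 DMSO plates) read 63.7, 78.0 and 132 CPM with gefitinib and 105, 32.6 and 104 CPM with AZD8931, overlapping UMSCC1 with AZD8931 but below all 3 UMSCC8 plates with gefitinib.

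TRCN0000021522 read 13.0, 38.4 and 25.8 CPM in UMSCC25 with DMSO and 56.4, 75.4 and 115 CPM with gefitinib, when UMSCC1 read 60.6, 68.6 and 111 CPM, so that the 2 lines overlapped. TRCN0000002177 was scattered in the treated plates, at 21.7, 21.4 and 19.4 CPM with DMSO, 63.7, 22.6 and 6.19 CPM with gefitinib and 88.8, 0 and 137 CPM with AZD8931 in UMSCC25. TRCN0000040045 was detected in 1 UMSCC25 plate with each agent (8.25 and 8.39 CPM) and in 1 of the 6 treated UMSCC1 plates (139.7 CPM). TRCN0000010168 read 34.3, 10.1 and 68.0 CPM with gefitinib in UMSCC25, below the 178, 166 and 143 CPM of UMSCC1 and overlapping the 104, 50.4 and 174 CPM of UMSCC8. With AZD8931, TRCN0000039972 read 57.3, 119.6 and 115 CPM in UMSCC25, above all 3 UMSCC1 plates (0, 26.2 and 51.0 CPM), and edgeR did not call that difference. TRCN0000052573 was the most abundant low member in UMSCC25, with means of 178 ± 86.1 CPM with gefitinib and 194 ± 63.9 CPM with AZD8931 (SD, n = 3), against 249.8 ± 29.2 and 378 ± 97.3 CPM in UMSCC8.

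With AZD8931, 3 low members were called in the opposite direction, higher in UMSCC25 than in UMSCC1, where 12.2% of all shRNAs were called higher. TRCN0000000520 read 42.5, 100 and 75.5 CPM in UMSCC25 and 0, 7.49 and 22.7 CPM in UMSCC1 (log2 fold change 2.61, SE 0.87, adjusted p = 0.0301). TRCN0000010148 read 51.8, 47.8 and 89.5 CPM against 2.43, 7.49 and 18.9 CPM (2.48, SE 0.75, adjusted p = 0.0174). TRCN0000003179 read 27.7, 19.6 and 2.80 CPM against 0, 3.75 and 0 CPM, where UMSCC1 had 1 count and a level of 0.0450 that in UMSCC25 (95% counting interval 0.0011 to 0.275; adjusted p = 0.029). In DMSO all 3 had been lower in UMSCC25 than in UMSCC1 on their means. None of the 3 calls was kept without UMSCC1 AZD8931 replicate 1 (adjusted p = 0.103, 0.0744 and 0.0898 in the same order). The TRCN0000003179 call was lost also under limma-voom. The number called was 1 without UMSCC25 AZD8931 replicate 2 or replicate 3, and 2 without UMSCC25 AZD8931 replicate 1 or UMSCC1 AZD8931 replicate 2. All 3 shRNAs were called lower in UMSCC25 than in UMSCC8 with gefitinib, but for TRCN0000000520, TRCN0000003179 and TRCN0000010148 these calls were lost in 9, 7 and 7 of the 18 fits that left out a library (adjusted p up to 0.149, 0.117 and 0.169). That of TRCN0000000520 was lost also with a replicate block, and that of TRCN0000010148 in the fit of all 27 libraries. TRCN0000003179 was called lower also with AZD8931 (16.7 CPM against 305 CPM on the means, log2 fold change -4.05, SE 0.80, adjusted p = 0.00536).

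TRCN0000040008 was the member with a known target, TGFBR2. This gene encodes the type II TGF-β receptor, a serine/threonine kinase that binds the ligand and then phosphorylates the type I receptor, which passes the signal on to SMAD proteins. The gene lies on the forward strand of chromosome 3, from 30606502 to 30694142 (GRCh38, GENCODE release 29). The count table holds no coordinates. Its DMSO plates read 17.4, 12.8 and 8.61 CPM in UMSCC25, 351, 87.7 and 63.1 CPM in UMSCC8 and 23.9, 88.9 and 28.5 CPM in UMSCC1. All 3 UMSCC25 plates were below the others, but the UMSCC25 level rested on 18 counts in all, and the shRNA left the set without UMSCC8 DMSO replicate 1 or without UMSCC1 DMSO replicate 2.

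With gefitinib TRCN0000040008 read 0, 25.1 and 2.06 CPM in UMSCC25, and with AZD8931 11.1, 10.9 and 0 CPM. The treated plates of UMSCC8 ran from 27.1 to 151 CPM and those of UMSCC1 from 0 to 74.9 CPM. UMSCC25 was thus below UMSCC8 on every plate and overlapped UMSCC1. The log2 fold changes were -1.75 against UMSCC1 and -2.73 against UMSCC8 with gefitinib (adjusted p = 0.392 and 0.191), and -1.73 and -3.53 with AZD8931 (adjusted p = 0.334 and 0.145), so none was called by the edgeR test. The direction against UMSCC1 with AZD8931 turned when UMSCC1 AZD8931 replicate 2 was left out (log2 fold change 2.37). A second shRNA against the same gene, TRCN0000040011, was not a member. It averaged 128 ± 24.8 CPM in UMSCC25, 139 ± 45.1 CPM in UMSCC8 and 84.0 ± 29.8 CPM in UMSCC1 in DMSO (SD, n = 3), so that it did not share the low level of TRCN0000040008 in UMSCC25. Any other shRNAs against TGFBR2 could not be identified here.

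The agents were also compared with each other within UMSCC25, at the different doses given above. No shRNA of 3125 was called between AZD8931 and gefitinib by edgeR's quasi-likelihood test, and 160 (5.12%) had an unadjusted p under 0.05, among them 4 low members and no high member. DESeq2 called 1 shRNA, the low member TRCN0000039634 described above (104 CPM with gefitinib and 11.3 CPM with AZD8931 on the means), for which the edgeR log2 fold change was -3.28 (SE 0.70, adjusted p = 0.204) and the DESeq2 value -3.30 (SE 0.69, adjusted p = 0.00555). Without UMSCC25 gefitinib replicate 3, edgeR called it too (adjusted p = 0.0275), and over all alternatives its adjusted p ran up to 1.

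Between UMSCC1 and UMSCC8, 3 of the 30 members were called with gefitinib (9.38% of all shRNAs in either direction) and 7 with AZD8931 (22.8%). TRCN0000003179 was called lower in UMSCC1 with both agents (adjusted p = 0.00397 with gefitinib and 6.06e-05 with AZD8931 in the edgeR test). The gefitinib count was 1 without UMSCC1 replicate 1 or 3 or UMSCC8 replicate 3. The same 3-fold rule on the DMSO means of the other lines found 38 shRNAs for UMSCC8 (31 high and 7 low) and 86 for UMSCC1 (6 high and 80 low), so 30 was the smallest number of the 3. Of the 31 high in UMSCC8, 12 met the rule again with gefitinib (1.86% of all shRNAs) and 10 with AZD8931 (1.16%), and of the 80 low in UMSCC1, 34 did with gefitinib (2.8%) and 40 with AZD8931 (7.99%). The smaller sets recurred less. Of the 7 low in UMSCC8, 2 met it again with gefitinib and 0 with AZD8931 (15 and 9 of all 3177 shRNAs). Of the 6 high in UMSCC1, 0 did with gefitinib and 2 with AZD8931 (20 and 35 of all). Whether these shares differ from those of the UMSCC25 members was not tested.

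The spread between plates was described for both sets. In UMSCC25, the highest plate exceeded the lowest by 1.08-fold to 1.87-fold in DMSO for the high members (median 1.39-fold), by 1.39-fold to 3.45-fold with gefitinib (median 1.60-fold) and by 1.15-fold to 4.87-fold with AZD8931 (median 2.16-fold). For the low members without a plate at 0, the medians were 2.13-fold in DMSO (21 members), 2.75-fold with gefitinib (19) and 2.89-fold with AZD8931 (18). The low members had 0 to 178 counts over the 3 UMSCC25 DMSO plates and the high members 142 to 837, so counting error weighs more on the low set.

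Clones of the TRC collection with consecutive numbers often target the same gene, although the table does not give targets. No member stood next to another, and the smallest distance between 2 member numbers was 19. The 8 high members had 13 neighbours by number, none of which was a member. Of these, 9 had a UMSCC25 DMSO level above the mean of the other lines, as 49.3% of all shRNAs did. Such a neighbour could still lie between the other lines, as TRCN0000000902 did. The median log2 ratio of UMSCC25 to the mean of the other lines was 0.19 in the 13 neighbours. The 21 low members with a neighbour had 36, of which none was a member. Of the 36, 20 lay below the mean of the other lines (50.4% of all shRNAs), and the median was -0.10. The median over all shRNAs was -0.01. For TRCN0000039888, the neighbour TRCN0000039889 had 242 CPM in UMSCC25, 135 CPM in UMSCC8 and 94.4 CPM in UMSCC1, and for TRCN0000000901, TRCN0000000902 had 409 CPM in UMSCC25, between the 615 CPM of UMSCC8 and the 196 CPM of UMSCC1.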

How the data were processed

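The data are 1 table that the authors deposited, with unnormalized read counts in 27 libraries for each shRNA. Bowtie 1.0.0, edgeR and hg19 are named in the submitters' processing notes without their roles. The labels gave each library its line, agent and replicate number. Members and tests were chosen with earlier results of these data known.

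Tests on the 18 treated libraries (6 groups) used the quasi-likelihood functions of edgeR 4.0.16 (R 4.3.3; glmQLFit, robust, and glmQLFTest), TMM scaling, shRNAs with at least 10 counts summed (3125), Benjamini-Hochberg adjustment and a threshold of 0.05. The DMSO libraries were left out because they chose the members. SEs were derived from the quasi-likelihood F. The script was tested on simulated data. Replicate pairs differed by more than sampling noise (reduced chi-square 6.21 to 43.1). Alternatives were DESeq2 1.42.0, limma 3.58.1 (voom), other scalings and filters, all 27 libraries, a replicate block, leaving out each library, and other forms of the rule. CPM used column totals (Python 3.11.15, pandas 2.3.3).

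Members were named by level (the 3 highest), ratio (the 3 most extreme), nearness to the threshold (2 on each side), movement of the treated level in UMSCC25 (2 in each direction), a call between agents, or a known TGF-β receptor target. Others were named after their values were seen. Genes came from the 6 identifiers the study pairs with TGFBR1 or TGFBR2, with the position from GENCODE 29 on GRCh38.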

Additional observations from a re-analysis of the deposited data

Results flagged for a closer look

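The difference between AZD8931 and gefitinib was not the same in UMSCC25 and UMSCC1 for 2 low members, by edgeR's interaction test over the 18 treated libraries. For TRCN0000000520, the log2 change from gefitinib to AZD8931 was 4.24 higher in UMSCC25 than in UMSCC1 (SE 1.18, adjusted p = 0.0459). Its means were 25.1 CPM with gefitinib and 72.7 CPM with AZD8931 in UMSCC25, and 79.9 and 10.1 CPM in UMSCC1. For TRCN0000010148, the difference was 4.08 (SE 1.00, adjusted p = 0.0222), with 35.2 and 63.0 CPM in UMSCC25 and 112 and 9.60 CPM in UMSCC1. Of all shRNAs, 96 (3.07%) were called in this interaction.

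Without UMSCC1 AZD8931 replicate 1, which had the most shRNAs at 0, neither was called (3.66, adjusted p = 0.0915, and 3.62, adjusted p = 0.0607 in edgeR). Over the 18 fits that left out a library, the adjusted p of TRCN0000000520 ran from 0.012 to 0.133 and missed the threshold in 12, and that of TRCN0000010148 ran from 0.012 to 0.0736 and missed it in 4. The part of that library in the result was not tested further. In the same interaction between UMSCC25 and UMSCC8, edgeR called no shRNA, with 124 (3.97%) at an unadjusted p under 0.05. DESeq2 was not run on the interactions.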

How the results depend on the processing

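Of the 42 calls of members, 31 were kept under every alternative other than a left-out library, 19 whichever library was left out, and 19 under all. With gefitinib, the members called against both lines numbered 5, but 9 under DESeq2 and 3 among those found without UMSCC8 DMSO replicate 1, which was chosen after seeing the data. DESeq2 called 1 shRNA between the agents in UMSCC25, against 0. The high and low sets, 8 and 22, became 52 and 81 at 2-fold, 3 and 10 at 4-fold, 14 and 40 with a floor of 50 CPM, 5 and 9 with a floor of 200 CPM, 21 and 54 on the gefitinib libraries, and 18 and 30 on the AZD8931 libraries. The median of the plates gave 11 and 23, of which 5 and 12 were members.

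With 1 library left out, the counts ran from 6 to 14 against UMSCC1 and 4 to 14 against UMSCC8 with gefitinib (6 without UMSCC1 gefitinib replicate 1 in the first, and 4 without UMSCC25 replicate 2 or 3 or any UMSCC8 gefitinib replicate in the second), and from 7 to 11 and 4 to 8 with AZD8931. Against both lines they ran from 2 to 9 with gefitinib and 2 to 6 with AZD8931, between UMSCC1 and UMSCC8 from 1 to 3 and 5 to 8, and between the agents from 0 to 1. The high set ran from 7 to 12 and the low set from 15 to 34. The log2 fold change of TRCN0000040008 against UMSCC1 with AZD8931 ran from -2.36 to 2.37, the latter without UMSCC1 AZD8931 replicate 2 and the one value above 0.

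Plates of the same replicate number had correlations of deviations of -0.32 to 0.26, and 0 of 7 pairs of groups had all over 0.1. Between lines with AZD8931 they were 0.26, 0.17 and 0.22 for replicate 1 and 0.09, 0.13 and 0.20 for replicate 2. For replicate 3 they were 0.07, -0.09 and -0.04, and with gefitinib they ran from -0.32 to 0.12. Whether plates of the same number shared a step was not tested. A replicate block gave 10, 7, 9 and 7 calls, in the order above, 4 and 5 against both lines, 3 and 7 between UMSCC1 and UMSCC8, and 0 between agents. Scaling by total counts alone moved the median of all shRNAs from 0.02 to 0.18 against UMSCC1 with AZD8931. The cause of these changes was not tested. Depth limits the low set, where 3 counts are up to 16.8 CPM.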
